A study of Mus musculus with 24 samples.

Results

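Levels of mRNA were compared between 24 h and 72 h of stimulation in mouse CD4 T cells that lack TRIM28. The comparison uses the 6 arrays titled as knockout (KO) at those times, 3 at 24 h and 3 at 72 h, of 24 arrays in all, and every one of the 22180 genes that the platform annotation names by 1 symbol. Naive CD4 T cells of Trim28-KO mice and of wild-type (WT) littermates were enriched on magnetic beads and sorted by flow cytometry. They were then stimulated through CD3, with antibody bound to the plate, and through CD28, with soluble antibody. The 3 WT arrays at 24 h and the 3 at 72 h serve only to ask whether a change differed between the genotypes. All 4 groups received the same stimulation, and the untreated and 4 h groups of the series enter only the estimate of the spread. The labels name no Cre driver, no sort gate and no separate animals. The p-values thus rest on how far these arrays differ, which may be partly technical.

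KRAB zinc finger proteins bind DNA and recruit TRIM28, which in turn gathers histone-methylating enzymes that keep the surrounding sequence silent. A naive CD4 T cell that meets antigen with costimulation leaves quiescence, grows, switches to glycolysis and biosynthesis, and divides repeatedly. In this period it also makes interleukin 2, chemokines and helper cell factors, and lowers receptors that belong to the resting, recirculating state.

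A level is the deposited log2 intensity, so that a difference of 1 is a 2-fold difference, and levels of different genes were not compared. A change is the mean of the 3 arrays at 72 h minus the mean of the 3 at 24 h, and "rose" and "fell" are used only for genes with an adjusted p below 0.05 (limma, Benjamini-Hochberg over all 22180 genes). Standard errors of the KO change of the genes named here lay between 0.06 and 0.40, with a median of 0.15. Array medians lay between 3.6 and 3.67. Pairs of arrays correlated at 0.9911 to 0.9922 within a KO group and at 0.9767 to 0.9842 between the 2 times. The female-specific transcript Xist stood near 10 on arrays 1 and 2 and between 3.32 and 3.39 on array 3 at both times, so sex was balanced between the times. In bulk RNA such as this, fewer cells of a kind and less RNA per cell cannot be told apart.

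Trim28 itself read 5.66, 5.63 and 5.53 in the KO arrays of 24 h and then 5.80, 5.19 and 5.65. The 2 times overlapped, with a change of -0.06 (SE 0.13, adjusted p = 0.878). In WT the means were 9.19 at 24 h and 8.64 at 72 h, above every KO array. Whether its probes lie inside the deleted stretch was not checked. The 9 measured markers of CD4 T cells averaged 9.45 to 9.67 per KO array at 24 h and 9.42 to 9.52 at 72 h. Of the marker lists of other cells, the 19 myeloid genes averaged 3.34 to 3.58 at 24 h and 3.21 to 3.32 at 72 h. The 15 B cell genes averaged 4.39 to 5.02 in KO at 24 h and 4.2 to 4.8 at 72 h, against 3.74 to 4.03 and 3.76 to 3.9 in WT. Of these 15 genes, 2 rose and 2 fell in KO between the times. Cd79a, a defining B cell gene, read 5.96, 4.74 and 5.48 in KO at 24 h and 5.46, 3.96 and 5.12 at 72 h, with overlap. The part of B cell RNA in the results was not tested.

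Between 24 and 72 h, 3920 genes changed in the KO cells, 17.7% of those tested. Of these, 2137 rose (9.63%) and 1783 fell (8.04%). At least 2-fold changes were fewer and mostly upward, with 464 rises and 117 falls (581 in all, 2.62%). Rises made up 54.5% of the calls, and 45.2% after a repeated quantile normalization, so the balance of directions depends on the scaling. With arrays 1 and 2 alone, 1104 genes fell.

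The 14 genes with the highest changes span amino acid and lipid metabolism, cytokines and surface molecules. Cth encodes cystathionine gamma-lyase, an enzyme that makes cysteine. It read 3.05, 3.11 and 3.03 at 24 h and 7.78, 8.40 and 8.27 at 72 h. All 3 arrays at 72 h thus lay above all 3 at 24 h, and the change of 5.09 (SE 0.16, adjusted p = 4.95e-18) was a 34.0-fold rise. Its levels at 24 h lay below the array medians, near the floor of the arrays, so this fold may understate the rise, as may those of Slc7a3, Csf2, Ccrl2 and Il23a below. The fatty acid desaturase Fads2 went from 4.42, 4.20 and 4.57 to 9.23, 8.99 and 9.13, a rise of 4.73 (SE 0.13). The chemokine Ccl5 went from 4.46, 3.64 and 4.22 to 8.12, 8.75 and 8.86, a rise of 4.47 (SE 0.20). For both genes the 2 times were separated by more than the spread of the arrays within a time. The stearoyl-CoA desaturase Scd1 rose by 4.44, the cationic amino acid transporter Slc7a3 by 4.27 and the CD28 ligand Cd80 by 4.21. Asparagine synthetase (Asns) rose by 4.12, the secreted binding protein Igfbp7 by 4.03 and the antiviral synthetase Oas3 by 3.68. Further down the order stood the enkephalin precursor Penk and the chemoattractant receptor homologue Ccrl2, both at 3.53, and the IL-23 subunit Il23a at 3.38. Csf2, which encodes GM-CSF, rose by 4.20 and the IL-27 subunit Ebi3 by 3.31. Both have several probe sets, and with their mean the changes were 2.29 and 2.06.

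The 14 lowest changes were smaller. The lymphocyte protease gene Ctsw read 6.97, 6.59 and 6.62 at 24 h and 3.05, 3.48 and 3.81 at 72 h, a fall of 9.71-fold without overlap (-3.28, SE 0.17, adjusted p = 2.29e-13). The chemokine Xcl1 went from 7.32, 8.23 and 7.92 to 5.04, 5.19 and 5.06, a fall of 6.63-fold (SE 0.23 on the log2 scale). The sphingosine 1-phosphate receptor S1pr1, by which T cells leave lymph nodes, went from 8.08, 7.40 and 7.31 to 5.84, 5.19 and 5.47, a fall of 4.29-fold. In each of these 3 genes every array at 72 h lay below every array at 24 h. Klf2, the transcription factor that drives S1pr1 and L-selectin in resting cells, changed by -1.88, and the Ikaros family factor Ikzf3 by -2.02. Enzyme, receptor and transporter genes among the 14 were Akr1c18 (-2.88), the nucleoside transporter gene Slc28a2b (-2.72), the cyclic nucleotide phosphodiesterase Pde2a (-2.08) and the vasoactive intestinal peptide receptor Vipr1 (-2.07). The binding protein gene Igfbp4 changed by -1.88 and Phxr4 by -1.83. The remaining 3, Ccdc152, Lrrc6 and Pgpep1l, are described with the WT arrays further on.

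**Figure D1:**
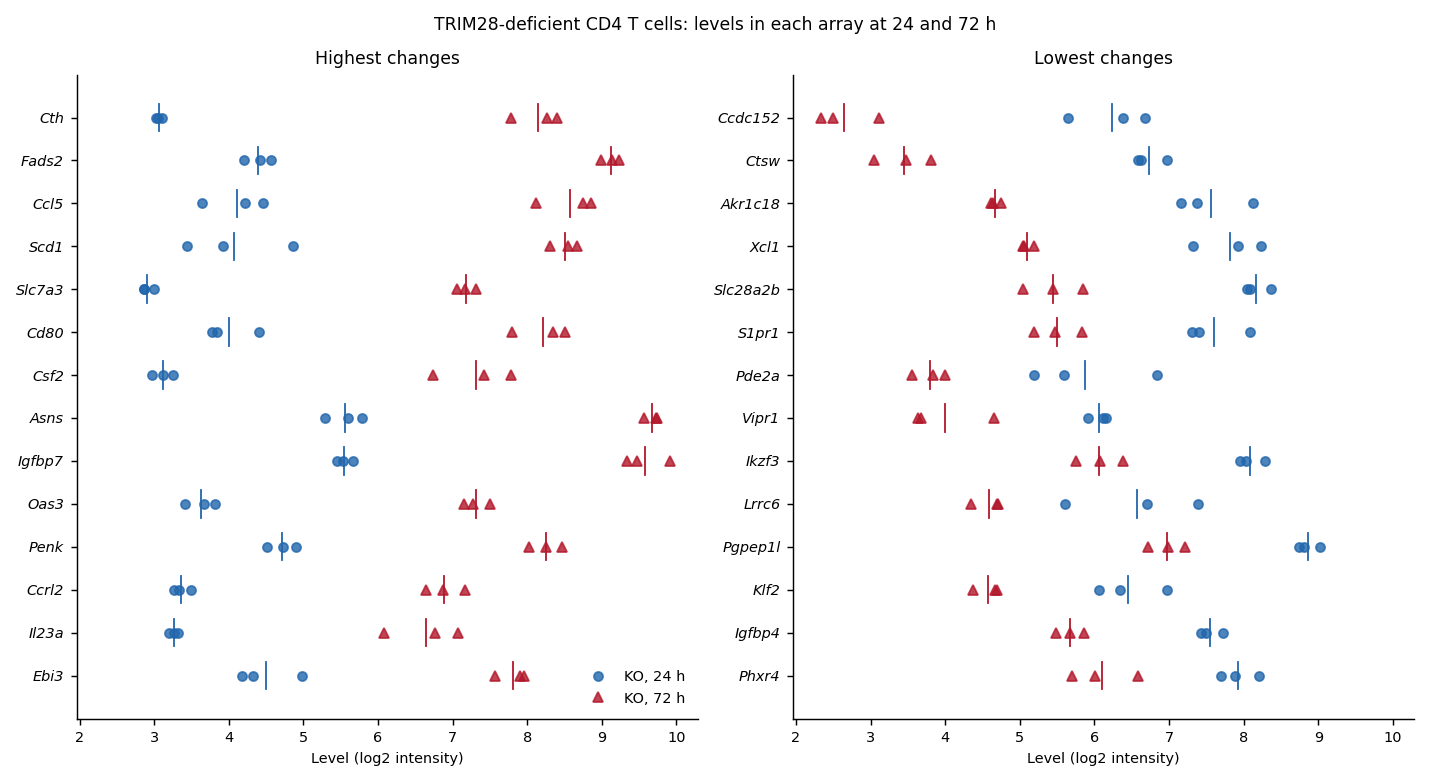
Level (log2 intensity) in each KO array at 24 h (circles) and 72 h (triangles) for the 14 highest and 14 lowest changes, with vertical bars at the group means. By the choice of genes the 2 times do not overlap in any row. The rise of Cth is 5.09 and the change of Ccdc152 is -3.59.

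Genes of mitosis rose almost as a body. Of 47 measured mitosis and spindle genes 46 rose and 0 fell (97.9%, against 9.63% of all genes), 41 of them by at least 2-fold, with a median change of 1.50 against -0.01 over all genes. The ubiquitin-conjugating enzyme Ube2c, which works with the anaphase-promoting complex, read 6.15, 5.90 and 6.04 at 24 h and 9.12, 9.23 and 9.25 at 72 h, a 9.0-fold rise (3.17, SE 0.12). Cyclin B2 (Ccnb2) rose by 2.98, the hyaluronan receptor and spindle protein Hmmr by 2.64 and Cdc20, an activator of the same complex, by 2.40. The proliferation antigen Mki67 went from 8.75, 8.65 and 8.86 to 10.27, 10.29 and 10.21, a rise of 1.50 without overlap. The exception was the B-Myb gene Mybl2, at 0.46, which did not pass the test.

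DNA replication genes took another course. Of 48 measured, 2 rose and 16 fell (33.3%, against 8.04% of all genes), with a median of -0.16 and no fall of 2-fold. Mcm2, a subunit of the replicative helicase, read 9.54, 9.67 and 9.65 at 24 h and 9.21, 9.0 and 8.95 at 72 h, a small fall without overlap (-0.57, SE 0.07, adjusted p = 1.58e-06). The uracil glycosylase Ung changed by -0.84 and the S phase transcription factor E2f1 by -0.73. Thymidine kinase (Tk1) rose by 0.58. With arrays 1 and 2 alone 10 of the 48 fell. Of 15 measured replication-dependent histone genes 10 rose and 0 fell. The largest rises were those of H2bc12 (2.45), H1f5 (2.40) and H1f1 (1.90), and probes for near-identical histone copies may share signal. Of 25 G1 cyclin and cyclin-dependent kinase inhibitor genes 5 rose (20%, against 9.63% of all genes) and 3 fell (12%, against 8.04%). The inhibitor p21 (Cdkn1a) went from 6.70, 6.60 and 6.82 to 8.81, 9.21 and 9.06, a 5.0-fold rise without overlap, and the INK4 family members Cdkn2d and Cdkn2c rose by 1.69 and 1.27. Among the 3 falls were cyclin D2 (Ccnd2, -0.38) and the pocket protein gene Rbl2 (-0.50).

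Because the mitotic genes rose together, their promoters were searched for the letters that mark many cell cycle genes. The cell cycle homology region was searched as TTTGAA and the CCAAT box as CCAAT, on both strands. Windows ran from 250 bases before to 50 after the start of a gene, in RefSeq annotation of GRCm38.p6. A window was given for 16918 of the 22180 genes and for 39 of the 47 mitosis genes. TTTGAA stood in 26 of the 39 (66.7%) and in 17.7% of all 16918. CCAAT stood in 29 of the 39 (74.4%) and in 41.6% of all. The list was chosen by function, so these shares describe its kind of gene and not the change with time. The 150 bases before the start of Ube2c (chr2:164769779-164769928, plus strand) and of Cdc20 (chr4:118437344-118437493, minus strand) are shown 5′ to 3′ on the strand of the gene as examples that hold both motifs. Capitals mark the matches of either strand, which read TTCAAA and ATTGG where they lie on the other strand.
Ube2c: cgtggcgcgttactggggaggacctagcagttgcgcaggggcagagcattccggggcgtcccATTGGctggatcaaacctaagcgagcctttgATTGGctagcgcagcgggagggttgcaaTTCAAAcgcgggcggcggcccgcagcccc
Cdc20: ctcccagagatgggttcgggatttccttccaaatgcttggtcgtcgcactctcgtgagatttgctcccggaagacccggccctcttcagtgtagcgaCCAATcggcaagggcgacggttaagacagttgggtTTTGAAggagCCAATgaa
In Ube2c the TTCAAA match ended 24 bases before the start, with ATTGG matches ending 84 and 53 bases before it. In Cdc20 the TTTGAA match ended 13 bases before the start and lay between 2 CCAAT matches. A match is a description of the letters and not of binding.

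Amino acid supply genes rose as a body too. Of 27 measured amino acid transporters and targets of the stress transcription factor ATF4, 25 rose and 0 fell (92.6%), with a median of 1.27. Beside Cth, Slc7a3 and Asns these were the glutathione-degrading Chac1 (2.91), the neutral amino acid transporter Slc1a4 (2.59), Sesn2 (2.34), a leucine-sensing inhibitor of mTORC1, and the pseudokinase Trib3 (2.14). Atf4 itself rose by 1.12 and its partner Ddit3 by 1.63. Asns read 5.60, 5.29 and 5.78 at 24 h and 9.56, 9.73 and 9.74 at 72 h and did not overlap. The glutamate-cystine exchanger Slc7a11 rose by 1.27, and by 0.63 with the mean of its probe sets.

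The core of the amino acid response element, searched as TGATGNAA on both strands, stood in 10 of the 19 windows of this list (52.6%) and in 3.92% of all 16918. The list was chosen to hold ATF4 targets, so a high share is partly built into it and does not bear on the change with time. Asns, whose promoter is the textbook case of this element, is shown for the 150 bases before its start (chr6:7693210-7693359, minus strand), with the match in capitals.
Asns: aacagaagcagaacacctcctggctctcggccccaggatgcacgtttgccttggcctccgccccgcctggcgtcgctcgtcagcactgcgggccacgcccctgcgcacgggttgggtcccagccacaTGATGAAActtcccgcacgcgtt
The match ended 16 bases before the annotated start.

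Of 22 glycolysis genes 18 rose and 0 fell (81.8%), with a median of 0.75. The lactate exporter Slc16a3 went from 4.58, 4.40 and 4.31 to 7.72, 8.07 and 7.40, a 9.84-fold rise without overlap. The mitophagy receptor Bnip3, a hypoxia-response gene kept in this list, rose by 1.83, aldolase C (Aldoc) by 1.27, the platelet-type phosphofructokinase Pfkp by 1.21 and hexokinase 2 (Hk2) by 1.15. Of 23 tricarboxylic acid cycle genes 6 rose (26.1%, against 9.63% of all genes) and 2 fell (8.7%, against 8.04%). With arrays 1 and 2 alone 0 fell. The isocitrate dehydrogenase Idh1 was the highest, at 1.12. Of 46 oxidative phosphorylation subunits 2 rose (4.35%, against 9.63% of all genes) and 6 fell (13%, against 8.04%). Without KO array 2 at 72 h 3 fell. Of 51 mitochondrial ribosomal proteins 3 rose (5.88%) and 2 fell (3.92%). Without KO array 1 at 24 h 1 rose, and after a repeated quantile normalization 7 fell. Ribosome biogenesis genes had 1 rise and 6 falls among 47, with a median of -0.14. The fall count ranged from 2 with arrays 1 and 2 alone to 14 after a repeated quantile normalization. In nucleotide and one-carbon synthesis 7 of 25 rose (28%, against 9.63% of all genes) and 5 fell (20%, against 8.04%). With arrays 1 and 2 alone 1 fell. The rises were led by enzymes of serine and folate metabolism, Psph (1.33), Mthfd2 (1.16) and Psat1 (1.07).

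Sterol and fatty acid synthesis rose in 24 of 29 genes and fell in 0 (82.8%), with a median of 1.03. Hmgcs1, which makes the precursor of mevalonate, read 8.58, 8.72 and 8.68 at 24 h and then 10.07, 10.18 and 10.17. The rise of 1.48 (SE 0.13, adjusted p = 2.95e-09) was without overlap. The lanosterol synthase gene Lss went from 7.38, 7.38 and 7.46 to 8.96, 8.84 and 8.94, a rise of 1.51. Msmo1, which acts downstream of it, rose by 1.52, and squalene epoxidase (Sqle) by 1.12. The regulators Srebf1 and Srebf2 rose by 0.62 and 0.59. Fatty acid synthase (Fasn) was at -0.07 and did not pass the test. The sterol response element core, searched as TCACNCCAC on both strands, stood in 1 of the 22 windows of the list (4.55%), that of Hmgcs1, and in 1.43% of all windows. The 150 bases before the start of Hmgcs1 are shown because of that match (chr13:119690201-119690350, plus strand).
Hmgcs1: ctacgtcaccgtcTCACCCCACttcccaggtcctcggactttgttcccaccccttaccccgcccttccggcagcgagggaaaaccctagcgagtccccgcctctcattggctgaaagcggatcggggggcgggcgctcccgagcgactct

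**Figure D2:**
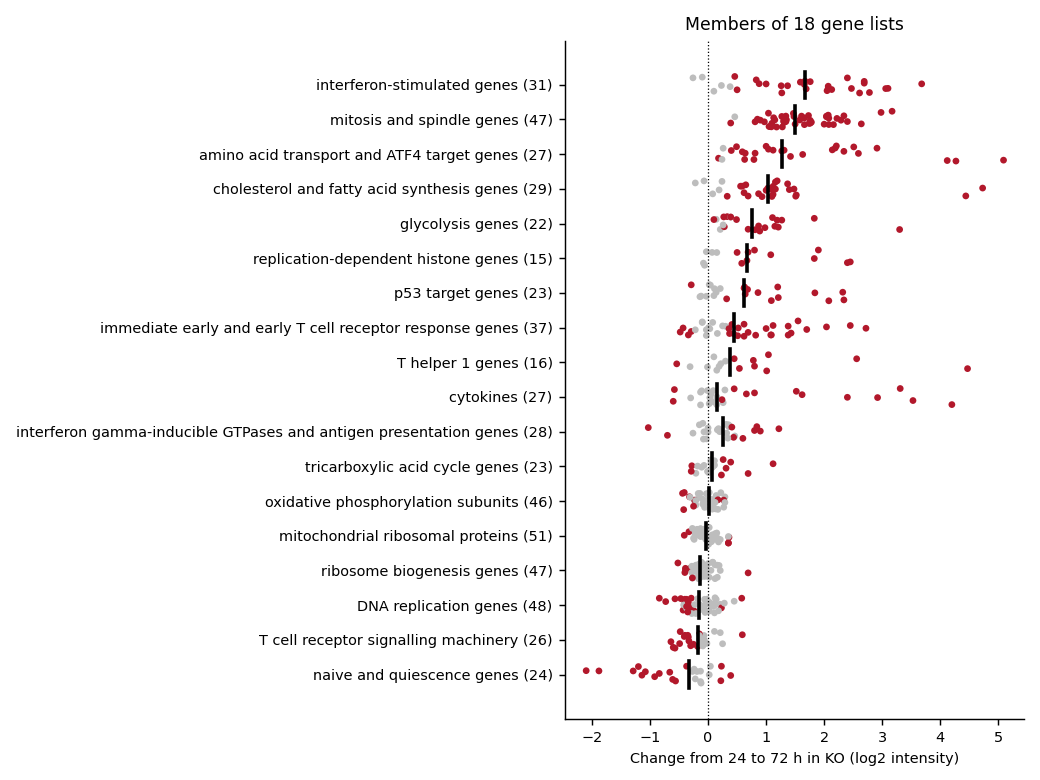
Change from 24 to 72 h in KO (log2 intensity) of each member of 18 gene lists. Each point is a gene, red where the adjusted p was below 0.05, black bars are list medians and the number of measured members follows each name. The medians run from 1.67 for interferon-stimulated genes to -0.32 for naive and quiescence genes, and the mitosis list has 46 red points of 47.

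Interferon-stimulated genes had the highest median of all lists, 1.67, with 26 of 31 rising and 0 falling (83.9%). These genes encode antiviral enzymes and sensors that cells make in response to interferon. The ubiquitin-like modifier Isg15 read 5.67, 5.73 and 5.50 at 24 h and 8.15, 8.65 and 9.39 at 72 h, an 8.55-fold rise without overlap. Oasl2 rose by 3.06, the sensor Ifih1 by 2.78, the dynamin-like GTPase Mx2 by 2.69 and the transcription factor Irf7 by 2.61. The ISG15 protease Usp18 was already high in KO at 24 h, at 8.46, 7.60 and 7.64, and rose to 9.51, 9.37 and 9.80. Guanylate-binding and immunity-related GTPases and antigen presentation genes, which respond mainly to interferon gamma, behaved less uniformly. Of 28, 7 rose (25%, against 9.63% of all genes) and 2 fell (7.14%, against 8.04%), with a median of 0.26. Without KO array 1 at 24 h, 11 rose and 1 fell. Gbp10 rose by 1.22, whereas Gbp4 went from 8.60, 7.81 and 7.90 to 7.13, 6.81 and 7.30, a 2.04-fold fall.

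The core of the interferon-stimulated response element, searched as GAAANNGAA on both strands with overlapping matches counted once per window, stood in 12 of the 21 windows of the interferon-stimulated list (57.1%) and in 9.28% of all 16918. Its members were chosen as interferon-stimulated, so a high share is partly built in and does not bear on the change with time. The 150 bases before the start are shown for Isg15 (chr4:156200819-156200968, minus strand) and for Oas3 (chr5:120777660-120777809, minus strand), the gene of this list with the largest rise. Capitals mark the matches, which run into each other.
Isg15: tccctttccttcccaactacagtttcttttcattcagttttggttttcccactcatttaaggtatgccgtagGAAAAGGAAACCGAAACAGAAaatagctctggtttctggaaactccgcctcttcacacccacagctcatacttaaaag
Oas3: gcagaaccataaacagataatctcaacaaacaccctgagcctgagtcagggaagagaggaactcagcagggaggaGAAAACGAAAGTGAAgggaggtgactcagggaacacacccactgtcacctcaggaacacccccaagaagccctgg
In Isg15 overlapping matches ended 70, 64 and 58 bases before the start, and in Oas3 they ended 67 and 61 bases before it.

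Of 27 cytokine genes 11 rose (40.7%, against 9.63% of all genes) and 2 fell (7.41%, against 8.04%). The T cell growth factor Il2 read 7.52, 8.05 and 8.16 at 24 h and 10.46, 10.28 and 10.21 at 72 h, a 5.29-fold rise without overlap (2.40, SE 0.18, adjusted p = 1.19e-10). The growth factor gene Il3 rose by 2.92 and Il6 by 1.52. Il6 averaged below 3.24 over all arrays of the series, near the floor, so the size of its change is uncertain. Tnf and lymphotoxin beta (Ltb) fell by 0.58 and 0.60 from levels above 9. Signature cytokines of helper subsets did not pass the test: Ifng was at -0.01, Il4, also below 3.24 on average, at -0.11 and Il17a at 0.05. Of 13 chemokine genes 4 rose (30.8%, against 9.63% of all genes) and 1 fell (7.69%, against 8.04%). Beside Ccl5, Ccl3 went from 7.70, 8.38 and 7.96 to between 9.99 and 10.17, Ccl4 rose by 1.56 and the interferon-inducible Cxcl10 by 1.14, while Xcl1 fell. Among 25 chemokine receptors and adhesion molecules 6 rose (24%, against 9.63% of all genes) and 7 fell (28%, against 8.04%). Ccr6, a receptor of mucosal and Th17 homing, went from 3.04, 3.24 and 3.43 to 5.64, 5.67 and 5.29, a 4.92-fold rise without overlap. Ccr8 rose by 1.72 and the beta 1 integrin gene Itgb1 by 0.98, while the integrin genes Itga6 and Itgb7 fell by 0.93 and 0.77.

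Granule and T helper 1 genes rose in part. Of 20 granule genes 7 rose (35%, against 9.63% of all genes) and 4 fell (20%, against 8.04%). The falls numbered 2 with arrays 1 and 2 alone or without KO array 2 at 72 h. Granzyme B (Gzmb) went from 4.74, 4.42 and 4.79 to 7.63, 7.57 and 7.97, an 8.41-fold rise without overlap. The serpin gene Serpinb9, whose product inhibits granzyme B, rose by 1.73 and Serpinb6b by 2.77. Of 16 T helper 1 genes 8 rose (50%, against 9.63% of all genes) and 1 fell (6.25%, against 8.04%). The fall count ranged from 0, as with arrays 1 and 2 alone, to 2, as with a replicate block. The IL-12 receptor chain Il12rb2 went from 5.94, 5.20 and 5.30 to 7.83, 8.27 and 8.03, and the T helper 1 factor T-bet (Tbx21) rose by 1.04 from 4.74, 4.49 and 4.62 to 5.49, 5.59 and 5.88. The related factor Eomes was at 0.22 and did not pass the test. Of 14 T helper 17 genes 3 rose (21.4%, against 9.63% of all genes) and 2 fell (14.3%, against 8.04%). The rises included the nuclear receptor gene Rora (1.24) and Stat3 (0.90). Of 21 genes of regulatory T cells 9 rose (42.9%, against 9.63% of all genes) and 3 fell (14.3%, against 8.04%). Foxp3, the defining factor of those cells, read 8.78, 8.01 and 8.36 in KO at 24 h and 8.30, 7.50 and 7.99 at 72 h, with overlap and a change of -0.45 that did not pass the test. Its levels in WT were 6.68, 6.90 and 6.69 at 24 h and 5.31, 5.06 and 5.95 at 72 h, below every KO array at the same time.

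Among 18 receptors that dampen T cells 3 rose (16.7%, against 9.63% of all genes) and 5 fell (27.8%, against 8.04%). With arrays 1 and 2 alone 3 fell. Tigit went from 4.99, 5.29 and 4.99 to 7.37, 7.74 and 7.49, a 5.43-fold rise, and Ctla4 rose by 1.12. The lymphocyte receptor Cd160 fell by 1.15, and Pdcd1, which encodes PD-1, was at -0.05. In the TNF family 13 of 26 rose (50%, against 9.63% of all genes) and 6 fell (23.1%, against 8.04%). The osteoclast cytokine gene Tnfsf11 (RANKL) rose by 1.77 and the OX40 ligand gene Tnfsf4 by 1.76, while the TNF receptor Tnfrsf1b fell by 0.86.

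Genes of the naive state fell more often than others. Of 24, 12 fell and 3 rose (50% fell, against 8.04% of all genes), with a median of -0.32. Besides S1pr1 and Klf2, the complement regulator Cd55 fell by 1.29, the IL-7 receptor gene Il7r by 1.20, and the IL-6 receptor chains Il6st and Il6ra by 1.14 and 1.08. Il7r read 8.30, 7.42 and 6.91 at 24 h and 6.42, 6.21 and 6.40 at 72 h. KO array 1 at 24 h was the highest for S1pr1, Klf2, Il7r and Cd55. Among the KO arrays at 24 h it was also the highest for Usp18, Ifi209, Gbp4 and Il12rb2. For Il2, Ccl3 and Ifitm2 it was the lowest, and for Isg15 and Gzmb it stood at neither end. The transcription factor genes Bach2 and Lef1 fell by 0.92 and 0.61. The 3 rises, Tob1 (0.39), Satb1 (0.23) and Ccr7 (0.22), were small, and none of them passed the test without KO array 3 at 24 h. Of 26 genes of the T cell receptor signalling machinery 14 fell (53.8%) and 1 rose (3.85%, against 9.63% of all genes), with small sizes. The CD3 chain gene Cd3e fell by 0.60, the costimulator Cd28 by 0.57, and the negative regulator Ubash3a by 0.64.

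Genes that answer the T cell receptor within hours had 22 rises (59.5%, against 9.63% of all genes) and 4 falls (10.8%, against 8.04%) among 37. The falls numbered 1 without KO array 2 at 72 h. The stress-inducible Ier3 rose by 2.72, the MAP kinase phosphatase Dusp4 by 2.45 and the AP-1 member Fosl2 by 2.04. Fos and Junb rose by 1.38 and 1.43, whereas Myc (-0.03), Egr1 (-0.10) and the activation marker Cd69 (0.01) did not pass the test. Among the falls Egr3, a target of calcium and ERK signals, was at -0.43 and its call was lost without KO array 2 at 72 h (adjusted p = 0.0756). Of 23 p53 target genes 13 rose (56.5%, against 9.63% of all genes) and 1 fell (4.35%, against 8.04%). Sesn2 (2.34), Cdkn1a (2.32) and the kinase gene Plk2 (2.08) were highest. Of 24 apoptosis regulators 9 rose (37.5%, against 9.63% of all genes) and 1 fell (4.17%, against 8.04%). The pro-apoptotic Pmaip1 (NOXA) rose by 1.21, and the fall was that of Bcl2l11 (BIM), by 0.91. Of 12 genes of the MYC and MAX network 1 rose (8.33%, against 9.63% of all genes) and 3 fell (25%, against 8.04%). The MAX partner genes Mxi1 and Mxd4 moved in opposite directions, by 1.10 and -1.16. Ddit4, an inhibitor of mTORC1, rose by 2.07, and Gabarapl1, which serves in autophagosome formation, by 2.06.

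Of 22 silencing factors that work with TRIM28 3 rose (13.6%) and 5 fell (22.7%, against 8.04% of all genes). The falls numbered 2 with arrays 1 and 2 alone, and 3 without KO array 1 or 3 at 24 h or without KO array 2 or 3 at 72 h. The histone methyltransferase gene Setdb1, whose product TRIM28 recruits, went from 8.94, 8.93 and 8.97 to 9.44, 9.44 and 9.42, a rise of 0.49 without overlap. The paralogue Trim24 fell by 0.58. Among the 336 Zfp-numbered zinc finger genes, rises numbered 19 (5.65%) and falls 31 (9.23%), against 9.63% and 8.04% of all genes. The fall count ranged from 19 with arrays 1 and 2 alone to 54 after a repeated quantile normalization. Of 28 imprinted genes 1 rose (3.57%) and 4 fell (14.3%, and 2 genes with arrays 1 and 2 alone), and the median level of the list was 3.27 at 24 h.

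The WT arrays show where the KO course differed. In WT 6086 genes changed between the same times, and 2739 changed in the same direction in both genotypes, which is 69.9% of the KO calls and 45% of the WT calls. Across genes the 2 changes correlated at 0.741, a description over genes, which are not independent replicates. The difference of the changes, tested in the same fit, passed for 1876 genes (8.46%), of which 1086 (4.9%) were higher and 790 (3.56%) lower in KO. Higher differences made up 57.9% of these and 47.7% after a repeated quantile normalization. Of the higher differences 696 were left without KO array 1 at 24 h, 707 without WT array 3 at 72 h and 485 with arrays 1 and 2 alone. Opposite directions were called for 72 genes, 40 that rose in WT and fell in KO and 32 the other way. The difference passed for all 72, which follows from opposite calls in the same fit and is no further test.

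**Figure D3:**
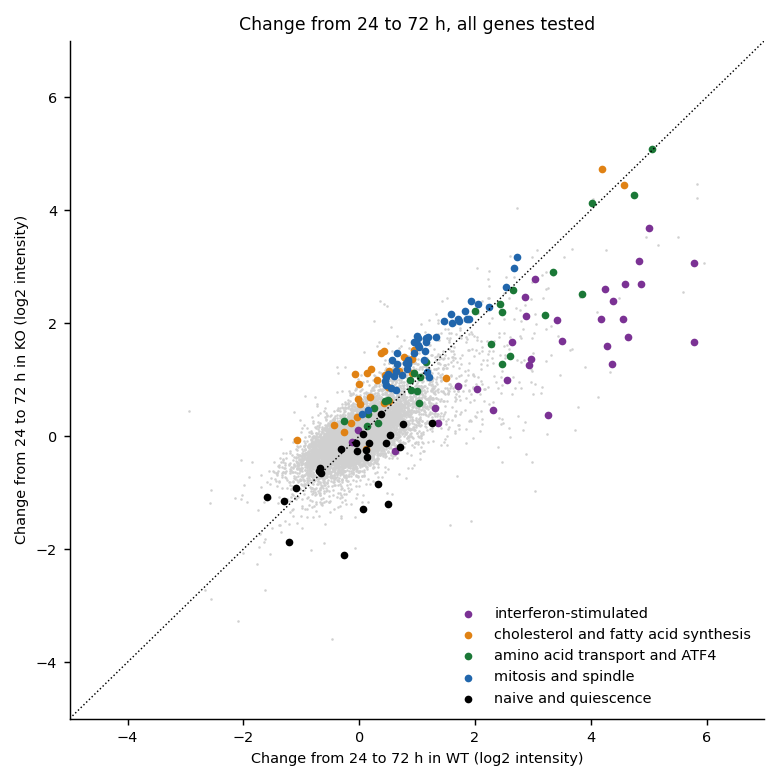
Change from 24 to 72 h in KO (vertical axis) against that in WT (horizontal axis), both in log2 intensity, with 1 grey point for each of the 22180 genes, 5 gene lists in colour and a dotted line of equal change. Interferon-stimulated genes lie mostly below the line, at a median of 1.67 in KO and 3.26 in WT, and sterol and fatty acid genes mostly above it, at 1.03 and 0.39.

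Most genes of the interferon-stimulated list rose in both genotypes but less in KO. The list's median change was 1.67 in KO and 3.26 in WT, and the difference was lower in KO for 27 of 31 genes and higher for 0. The lowest difference of all named genes was that of Usp18, -4.11 (SE 0.22, adjusted p = 2.17e-12). In WT it went from 5.04, 5.05 and 5.04 to 10.84, 10.70 and 10.91. The KO arrays lay above the WT arrays at 24 h and below them at 72 h, without overlap at either time. For Isg15 the WT levels were 5.40, 5.42 and 5.34 and then 10.23, 10.26 and 10.17. Here the KO arrays lay just above WT at 24 h, and all lay below WT at 72 h (difference -1.74, SE 0.25). Next lowest were the DNA sensor family members Ifi208 (-4.02), Ifi213 (-3.44) and Ifi209 (-3.43), Phf11a (-3.62), and Mpeg1, a pore-forming protein gene (-3.43). These did not all rise in KO. Ifi208 fell there (-0.985), but the call was lost in 5 of 14 alternatives, and without KO array 1 at 24 h the change was -0.52. The KO change of Phf11a did not pass the test in any setting. Ifi209 went opposite ways, from 8.76, 8.12 and 8.19 to 6.96, 6.59 and 7.01 in KO and from 6.44, 6.33 and 6.19 to 8.14, 8.18 and 8.42 in WT. Of the 28 interferon gamma-inducible genes 25 rose in WT and 7 in KO, and the difference was lower in KO for 20. The antiviral enzyme gene Rsad2 rose by 1.27 in KO and by 4.37 in WT.

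Some T helper 1 and granule genes were lower in the difference, 6 of 16 and 4 of 20, with 0 higher in either list. Of all genes 3.56% were lower and 4.9% higher. Gzmb went to 10.67, 10.48 and 10.53 in WT, far above the KO arrays at 72 h (difference -2.89, SE 0.20). Il12rb2 reached 10.60, 10.57 and 10.40 in WT (difference -3.04), and the differences for Eomes, Tbx21 and Ifng were -2.23, -1.61 and -0.86. Cxcl10 (-3.19) and Il6 (-2.13) were lower as well, the size for Il6 being uncertain because its mean level was near the floor. Among the genes with the highest rises in KO, the rises of Ccrl2, Il23a, Cd80, Penk, Ccl5 and Oas3 were smaller than in WT, with differences of -1.97, -1.79, -1.63, -1.42, -1.37 and -1.33. The rise of Igfbp7 was larger in KO, with a difference of 1.31. For Cth, Asns, Scd1 and Csf2 the difference did not pass the test.

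Il2, Ccl3 and Ifitm2 started lower in KO. For Il2 the WT levels were 9.90, 9.94 and 9.88 and then 10.48, 10.18 and 10.14. The KO arrays lay below WT at 24 h and overlapped WT at 72 h (difference 2.04, SE 0.25, adjusted p = 5.06e-06). Ccl3 behaved alike, with WT at 9.76, 9.82 and 9.75 and then 10.01, 10.30 and 9.79 (difference 1.79). The interferon-inducible membrane protein gene Ifitm2 read 3.54, 4.21 and 4.67 in KO and 6.03, 5.75 and 5.77 in WT at 24 h, and 6.25, 6.64 and 6.56 against 6.33, 6.34 and 6.14 at 72 h (difference 1.91). For Ccr6 the genotypes differed at 72 h, where WT read 3.81, 4.07 and 3.88 (difference 1.82). The highest difference, 3.39 (SE 0.17), was that of Il1a. It fell in WT from 5.33, 5.64 and 5.53 to 2.50, 2.70 and 2.48 and in KO rose by 0.45 from 2.19, 2.27 and 2.28 to 2.54, 2.96 and 2.60. The KO levels are near the floor of the arrays, so the size of this difference is uncertain, and the KO rise was not called without KO array 2 at 72 h (adjusted p = 0.0853). Mtfp1, a mitochondrial fission gene, rose by 0.71 in KO and fell by 0.93 in WT (difference 1.64).

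**Figure D4:**
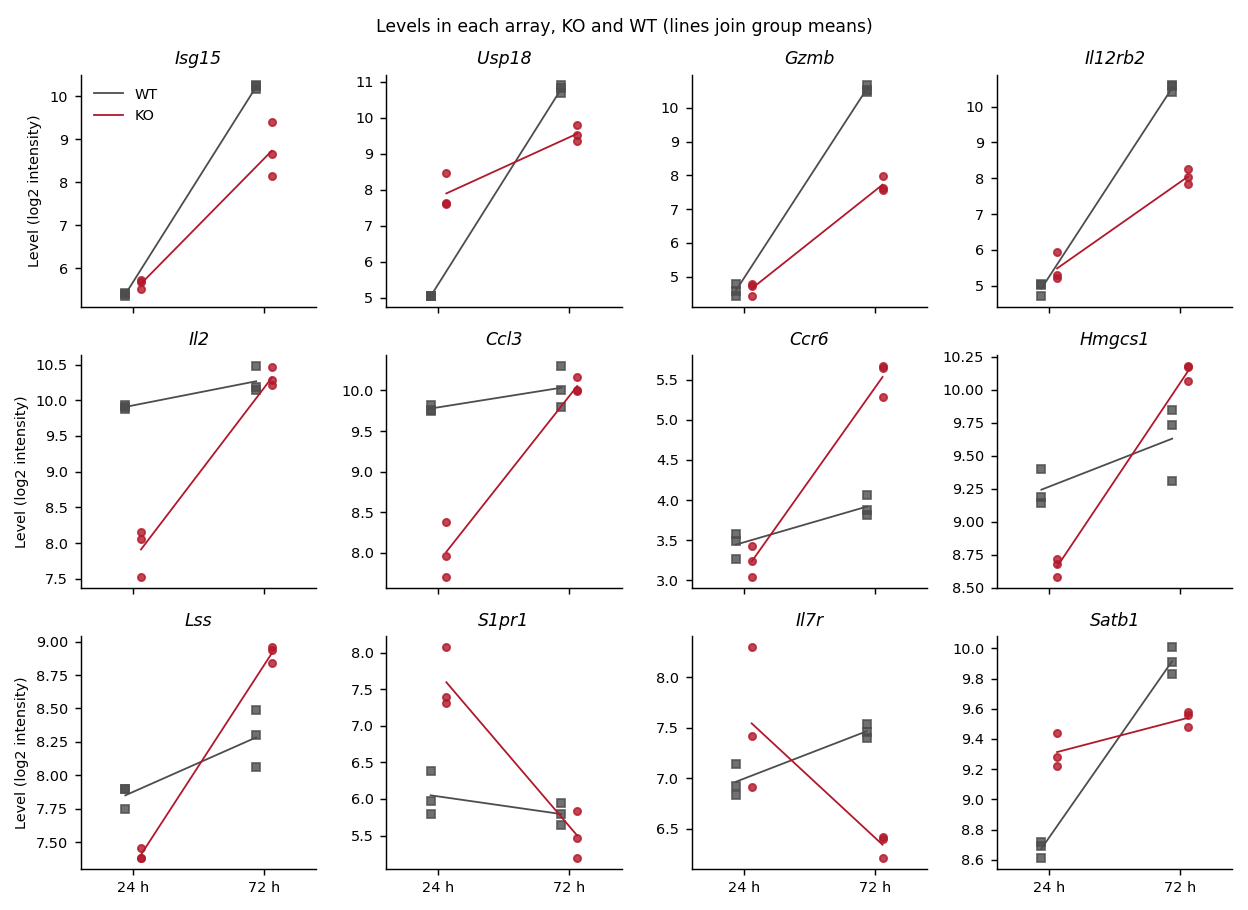
Level (log2 intensity) of 12 genes in each array at 24 and 72 h, KO as red circles and WT as grey squares, with lines joining the means of 3 arrays. Isg15, Gzmb and Il12rb2 end lower in KO, Il2 and Ccl3 start lower in KO, and S1pr1 and Il7r start at a higher mean and fall.

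Several biosynthetic and proliferative lists were higher in the difference, but the amino acid supply list was not, with 0 of 27 genes higher and 5 lower and a median of -0.07. Of 29 sterol and fatty acid genes 17 were higher in KO and 0 lower. In WT, Hmgcs1 went from 9.40, 9.14 and 9.19 to 9.73, 9.85 and 9.31, so the KO arrays lay below WT at 24 h and above it at 72 h (difference 1.10, SE 0.19). Lss crossed in the same way (difference 1.08), and Elovl6, a fatty acid elongase, rose by 1.10 in KO and was at -0.07 in WT. Fasn fell by 1.09 in WT. For DNA replication 41 of 48 genes fell in WT and 16 in KO, and the difference was higher in KO for 21 and lower for 0. For ribosome biogenesis 40 of 47 fell in WT and 6 in KO, and the difference was higher for 30. The KO falls numbered 11 without KO array 1 at 24 h and 14 after a repeated quantile normalization. Counts of differences within lists were not repeated in the alternatives. In the mitosis list it was higher for 9 of 47, against 4.9% of all genes, while the medians were 1.50 in KO and 1.02 in WT. Over all genes the median change was -0.01 in KO and -0.06 in WT. The median difference of all genes was 0.06, and 0.018 after a repeated quantile normalization.

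**Figure D5:**
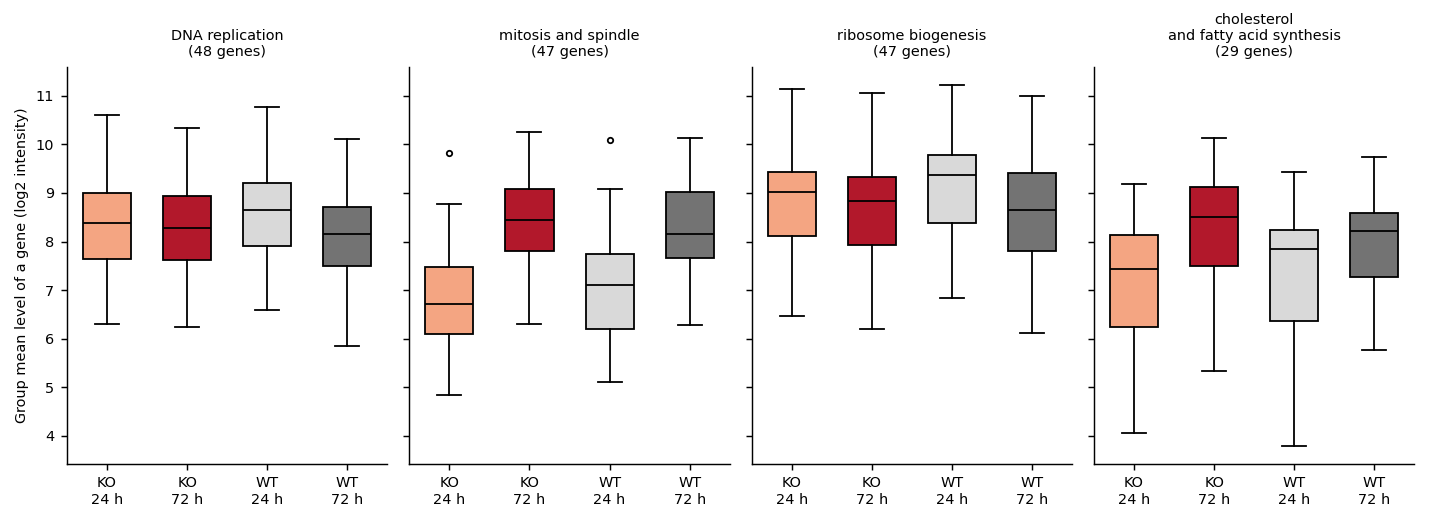
Group mean levels (log2 intensity) of the genes of 4 lists in KO and WT at 24 and 72 h. Boxes span the quartiles with a line at the median, whiskers reach 1.5 box lengths and circles lie beyond. The median of the mitosis list goes from 6.71 to 8.45 in KO and from 7.10 to 8.15 in WT, and that of the sterol and fatty acid list from 7.43 to 8.51 and from 7.85 to 8.21.

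Naive genes were lower in the difference for 10 of 24 and higher for 0, against 3.56% and 4.9% of all genes. The WT median was 0.07, and 6 rose and 8 fell there. S1pr1 in WT stood at 6.38, 5.97 and 5.80 and then 5.65, 5.94 and 5.79. The KO arrays thus lay above WT at 24 h and overlapped it at 72 h (difference -1.84, SE 0.24, adjusted p = 8.44e-06). For Il7r, WT read 7.14, 6.92 and 6.84 and then 7.40, 7.54 and 7.46, so the genotypes overlapped at 24 h and KO lay below WT at 72 h (difference -1.70). The chromatin organiser gene Satb1 rose by 1.25 in WT and by 0.23 in KO. In the early T cell receptor list the difference was higher for 8 and lower for 2 of 37, against 4.9% and 3.56% of all genes. Egr3 (1.61), which fell by 2.04 in WT, led the higher ones. For Pdcd1, which fell by 1.35 in WT, the difference was 1.30.

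Of the lowest changes in KO, 3 belong to genes that were low in WT. Ccdc152 read 6.68, 5.65 and 6.39 in KO at 24 h and 3.11, 2.50 and 2.34 at 72 h, while all 6 WT arrays lay between 2.11 and 2.80 (difference -3.12, SE 0.25). Pgpep1l, named for its likeness to a peptidase, read 9.02, 8.81 and 8.74 and then 7.21, 6.72 and 6.98 in KO, and between 3.26 and 4.59 in WT (difference -1.29). The cilium assembly gene Lrrc6 read 7.39, 5.60 and 6.71 and then 4.69, 4.35 and 4.71 in KO, and between 3.89 and 4.52 in WT (difference -1.91, SE 0.57, adjusted p = 0.0352). The call of that difference was lost in 12 of 20 alternatives, among them without KO array 1 at 24 h (-1.50, adjusted p = 0.138). All 3 fell in KO, and Pgpep1l was at 72 h still above every WT array.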

How the data were processed

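Gene expression was measured on 24 arrays, 3 for each of 8 groups of genotype and time. The authors deposited log2 intensities that the submitters' processing notes credit to RMA, oligo and R 3.1.0, and these values were used as they stand. RMA forces the same distribution on all arrays, so a change shared by most genes would not appear. Of 41345 probe sets 23521 have 1 gene in the platform annotation, 1814 have several and 16010 are unnamed here. By Entrez ID 23328 matched RefSeq. Where a gene had more than 1 probe set (1082 genes), its brightest on average was kept, giving 22180 genes.

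Group means were fitted over all 24 arrays with limma 3.58.1 in R 4.3.3 (eBayes with trend), and p-values were adjusted by Benjamini-Hochberg over all genes, with a threshold of 0.05. The fit was tested on simulated data. The number of arrays limits the precision. The named genes are, among changes that passed and whose times do not overlap, the 14 highest and 14 lowest, and the 6 highest and 6 lowest differences between the genotypes. Predicted genes, small RNAs, histone genes and antigen receptor segments were left out of both. Added to these are up to 3 members in each direction of 49 gene lists, and members whose role is described. The comparison, the lists and the tests were chosen with earlier results of these data known.

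Same-numbered KO arrays at 24 and 72 h deviated together from their group means (correlations 0.16, 0.189 and 0.183 over genes). Over autosomal genes above the low-value filter the correlations were 0.152, 0.177 and 0.051, so pairing of array 3 is not clear. The WT pairs stood at -0.004, 0.022 and 0.145 over all genes and at -0.01, 0.003 and 0.024 over the autosomal genes above the filter. The reported fit has no block. A replicate block, other scalings and filters and the leaving out of each array were tried as alternatives.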

Additional observations from a re-analysis of the deposited data

Results flagged for a closer look

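These genes were singled out because their change from 24 to 72 h in KO differed from that in WT by a test of the difference itself (limma, adjusted p below 0.05). Among the genes named for their change in KO, the difference (KO minus WT, log2) was -1.37 for Ccl5, -1.63 for Cd80, -1.33 for Oas3, -1.42 for Penk, -1.97 for Ccrl2, -1.79 for Il23a and 1.31 for Igfbp7. It was -3.12 for Ccdc152, -1.19 for Ctsw, -1.10 for Slc28a2b, -1.84 for S1pr1, -1.18 for Ikzf3, -1.91 for Lrrc6 and -1.29 for Pgpep1l, all of which fell in KO. The call for Lrrc6 was lost in 12 of 20 alternatives, that for Slc28a2b in 4 and that for Pgpep1l in 1. Among the genes named for the difference itself, it was 3.39 for Il1a, 2.04 for Il2, 1.91 for Ifitm2, 1.82 for Ccr6, 1.79 for Ccl3 and 1.64 for Mtfp1. It was -4.11 for Usp18, -4.02 for Ifi208, -3.62 for Phf11a, -3.44 for Ifi213, -3.43 for Ifi209 and -3.43 for Mpeg1. The last 12 were chosen by the size of the difference, so their sizes describe the choice. The others were chosen by the size of the KO change, which is part of the difference. Their differences are thus not free of the choice either, above all for those that fell in KO and had a negative difference. No group had 4 or more arrays, so no array was tested for standing apart within its group.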

How the results depend on the processing

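Alternatives averaged all probe sets of a gene, or used a filter that left genes with a mean level of at least 3.24, repeated quantile normalization, median centring, robust eBayes, a fit of the compared groups, a replicate block, arrays 1 and 2 alone, and leaving out each array. The KO change was called for 3920 genes and ranged from 2734 with arrays 1 and 2 alone to 4324 with the other groups left out. With arrays 1 and 2 alone, which have fewer samples, the falls numbered 1104 (of 1783), and the differences between genotypes 942 (of 1876), of which 485 were higher in KO (of 1086) and 457 lower (of 790). Leaving out 1 array gave 696 to 1113 higher differences. The replicate block gave 3964 changes and 1929 differences. Among the genes named here it changed no call of the KO change, ended the call of the difference for Cdkn2d (adjusted p = 0.058) and added those of Klf2 (0.046) and Tigit (0.0485). No named gene changed direction while called. The call of the KO change ended for Il1a (adjusted p = 0.0853) and Ifi208 (0.336) without KO array 2 at 72 h, and of the difference for Slc28a2b without KO array 1 at 24 h (0.051). Over 14 alternatives the Ifi208 call was lost in 5. Over 20 alternatives the call of the difference was lost in 13 for Cdkn2d, 12 for Lrrc6, 4 for Slc28a2b and 1 for Pgpep1l (arrays 1 and 2 alone). The cause was not tested. The filter left Ccdc152, Il1a, Il4, Il6 and Slc7a11 untested. Signals near the floor of the arrays understate changes of low genes.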

Other observations

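Further gene lists were measured in the KO cells between 24 and 72 h, when 9.63% of all genes rose and 8.04% fell. Of 19 genes of the endoplasmic reticulum stress response and secretion 9 rose and 3 fell, with the disulfide oxidase gene Ero1a (1.33) and Herpud1 (0.89) highest and the chaperone partner Dnajb9 (-0.78) lowest, and 1 fell with arrays 1 and 2 alone. Of 21 heat shock and chaperonin genes 7 rose and 0 fell, with the inducible HSP70 genes Hspa1b (1.51) and Hspa1a (1.26), near-identical copies, highest. Of 22 fatty acid oxidation genes 8 rose and 0 fell, and 5 rose with arrays 1 and 2 alone. Of 32 autophagy and lysosome genes 6 rose and 8 fell, and 4 fell with arrays 1 and 2 alone. The lysosomal protease Ctsl rose by 0.96, and the autophagosome protein gene Map1lc3b changed by -0.68. Of 41 cytosolic ribosomal proteins 2 rose (4.88%) and 3 fell (7.32%), both under the shares of all genes. With arrays 1 and 2 alone 0 rose, and 1 fell without KO array 1 at 24 h or without KO array 2 or 3 at 72 h.

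Of 15 genes of IL-2 and STAT5 signalling 9 rose and 2 fell. Lif rose by 1.62, and the kinase gene Pim2 changed by -0.55. Of 34 effector and memory genes 13 rose and 6 fell, with the annexin Anxa2 (2.61) and the galectin Lgals1 (1.76) among the rises. Of 13 T helper 2 genes 6 rose and 0 fell, including the transcription factor gene Nfil3 (1.35). Of 13 follicular helper genes 1 rose and 2 fell. Of 15 PI3K brakes and FOXO targets 4 rose and 6 fell, with Klf4 at 1.35 and the kinase-like gene Trib2 at -0.90. Of 14 Schlafen and Gimap genes 1 rose and 3 fell, and 4 rose without KO array 1 at 24 h.

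The 5 CD8 T cell markers averaged 5.36 to 5.71 per KO array at 24 h and 4.96 to 5.01 at 72 h, without overlap, and 1 rose and 2 fell. The WT averages were 5.72 to 5.92 and 5.31 to 5.47. This list holds Xcl1, which fell. The CD8 chain gene Cd8a read 3.06, 3.44 and 3.31 in KO at 24 h and 3.23, 3.06 and 2.92 at 72 h, with overlap. Of 19 myeloid markers 0 rose and 1 fell, of 8 natural killer and innate lymphoid markers 0 rose and 1 fell, and of 8 erythroid and platelet markers 1 rose and 0 fell. Of the 9 CD4 T cell markers 3 rose and 4 fell.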
